A study of Mus musculus with 11 samples.

Results

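The cadherin switch and mesenchymal transition genes studied here were 8 mouse genes, Cdh1, Epcam, Cdh2, Vim, Snai1, Zeb1, Zeb2 and Twist1, out of 22367 annotated protein-coding genes. They were chosen by name. For each gene, every ChIP-seq peak whose midpoint lay in the gene body or within 50 kb on either side (its window, mm9 coordinates) was collected from 10 peak lists, which gave 823 of the 1004445 listed peaks. The lists came from epiblast stem cells (EpiSCs) of 129/Sv origin, a pluripotent line grown without feeder cells in activin (20 ng/ml) and FGF2 (10 ng/ml). Each of 5 transcription factors (TFs), ZIC2, OTX2, SOX2, POU5F1 and POU3F1, was profiled in 2 cultures: EpiSCs kept in activin, and activin-free EpiSCs from which activin had been removed 18 h before harvest. In both cultures the cells carried a transiently transfected pCAGGS vector, which made the TF with a biotinylation tag (BLRP) together with the biotin ligase BirA, and the tagged TF was captured on streptavidin. Biotin was added 8 h after transfection and the cells were fixed after 24 h in both cultures. The peaks therefore report a tagged TF that was added to the cells' own, from a strong general promoter, and TF amounts in the 2 cultures were not part of the data. The paper chose the vector dose for a physiological level of tagged TF in EpiSCs, and reports the largest rise in nuclear TF for POU3F1. Peak lists hold no expression values, so neither the cell type nor the activity of the 8 genes could be checked in them.

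In an epithelium, E-cadherin (Cdh1) joins neighbouring cells and EpCAM (Epcam) is a further surface adhesion protein of epithelial cells. During the epithelial to mesenchymal transition, E-cadherin gives way to N-cadherin (Cdh2), and the intermediate filament protein vimentin (Vim) is made. The zinc finger proteins Snai1, Zeb1 and Zeb2 repress Cdh1 by binding E-boxes, and the basic helix-loop-helix protein Twist1 acts in the same programme. Epiblast cells, of which EpiSCs are a cultured counterpart, undergo this transition as they pass through the primitive streak. POU5F1 and POU3F1 are POU domain proteins that bind the octamer motif, SOX2 is an HMG box protein that often pairs with POU factors, OTX2 is a homeodomain protein and ZIC2 a zinc finger protein.

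Each combination of TF and culture had 1 library, so no difference below could be tested against replicate spread. The peak lists give no read numbers and the depth is unknown. List sizes ran from 62457 peaks (POU5F1, EpiSCs) to 126908 (POU5F1, activin-free), so a gain or loss in the number of peaks at a gene has to be read beside its list. The strength of a peak is its MACS score, which is -10 times the log10 of the p-value for enrichment over input. Scores started at 50 and many of the strongest peaks stood at 3100, where most of them are capped. Scores also depend on library depth. The samples hold 1 input library, from EpiSCs kept in activin, and none from activin-free EpiSCs. Intervals given for shares of peaks are 95% Wilson intervals and cover counting error only.

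The 8 genes fell into 2 patterns of peak density, the number of peaks per 100 kb of window. Cdh1, Epcam and Snai1 held mainly ZIC2 and OTX2 peaks, and no POU3F1 peak in either culture. Cdh2, Zeb1, Zeb2, Vim and Twist1 held peaks of all 5 TFs in both cultures. At Cdh1 the EpiSC density was 12.6 peaks per 100 kb for ZIC2 and 14.4 for OTX2, against medians of 6.80 and 6.21 over all protein-coding genes. At Cdh2 it was 0.936 for ZIC2 and 6.24 for OTX2, and 10.9 for POU3F1, where the median gene had 0. The E-cadherin and N-cadherin genes thus lay on opposite sides of the median gene for ZIC2, and Cdh1 had no POU3F1 peak. Of all genes, 68.2% had a lower ZIC2 density than Cdh1 and 10.4% a lower one than Cdh2. For POU3F1, 95.3% of genes had a lower density than Cdh2, and 52.2% of genes had, like Cdh1, no peak in EpiSCs.

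**Figure D1:**
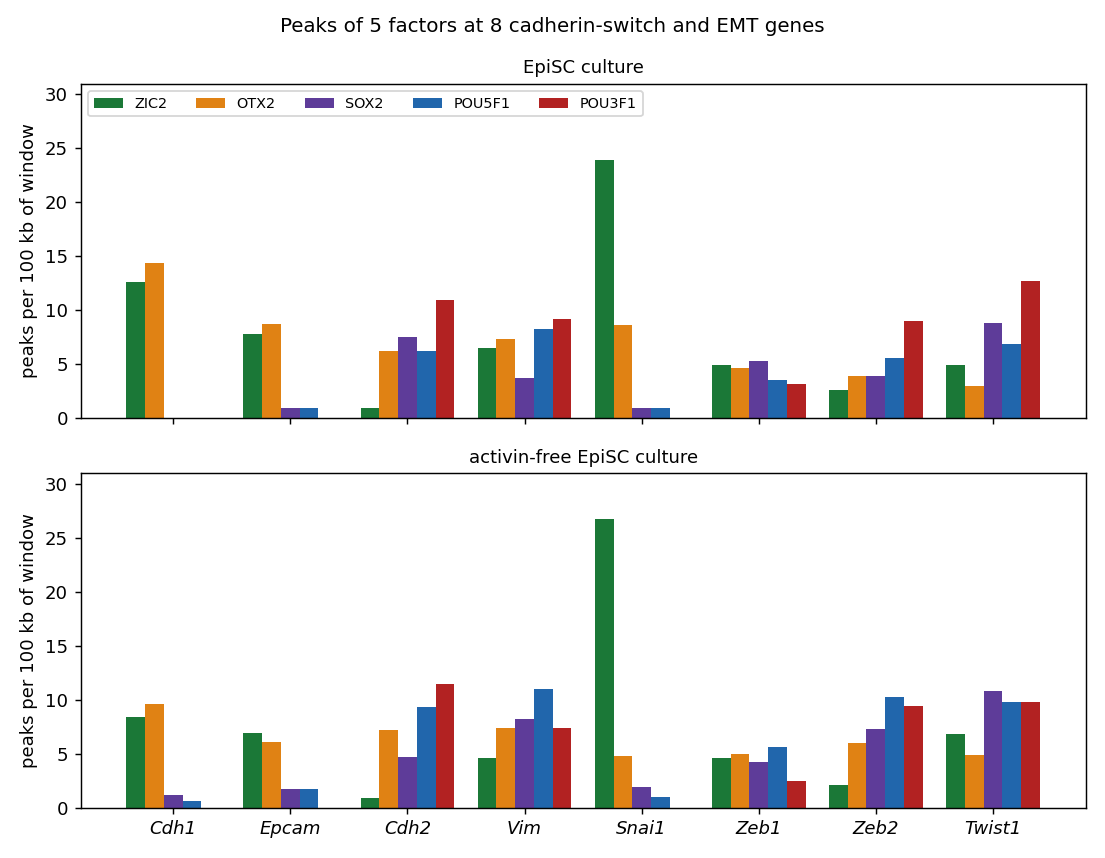
Peaks per 100 kb of window (y axis) for each of the 8 genes (x axis) and 5 TFs (colours), with EpiSCs and activin-free EpiSCs in separate panels and 1 library behind each bar. POU3F1 bars are missing at Cdh1, Epcam and Snai1 in both panels, and the tallest ZIC2 bars are those of Snai1, 23.9 and 26.8 peaks per 100 kb.

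Having a peak at all was common among genes and says little by itself. In EpiSCs all 8 genes had a ZIC2 peak (93.1% of all genes did) and all 8 an OTX2 peak (93.3% of genes). A SOX2 peak was found at 7 of 8 (75.0% of genes), a POU5F1 peak at 7 of 8 (77.3%) and a POU3F1 peak at 5 of 8 (47.8%). The gene without SOX2 and POU5F1 was Cdh1. In activin-free EpiSCs all 8 genes had peaks of ZIC2 (92.3% of genes), OTX2 (95.6%), SOX2 (85.6%) and POU5F1 (89.5%), and 5 of 8 had POU3F1 (53.0%).

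A ZIC2 peak lay over an annotated start site of every one of the 8 genes in both cultures. Over all genes, 66.2% had this in EpiSCs and 64.4% without activin. The other TFs were rarely on start sites. In EpiSCs, OTX2 covered a start site at 2 of 8 genes (15.5% of all genes), SOX2 at 1 (2.93%), POU5F1 at 0 (1.99%) and POU3F1 at 1 (3.39%). Without activin, OTX2 was on a start site at 2 of 8 genes (15.3% of all genes), and SOX2, POU5F1 and POU3F1 at 1 of 8 each (7.14%, 4.27% and 4.73% of all genes). The genes concerned were Epcam and Vim for OTX2 in EpiSCs, Zeb2 for POU3F1 in both cultures, and otherwise Vim and an inner start site of Cdh2.

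Cdh1 (ENSMUSG00000000303.6, chr8:109127251-109194146, plus strand) encodes E-cadherin. Its 167-kb window held 21 ZIC2 and 24 OTX2 peaks in EpiSCs, and 0 of SOX2, POU5F1 and POU3F1. Without activin there were 14 ZIC2, 16 OTX2, 2 SOX2 and 1 POU5F1 peaks, and again 0 of POU3F1. Cdh1 was therefore a ZIC2 and OTX2 gene in both cultures, and 44 of its 78 peaks were nearer to a Cdh1 start site than to that of another protein-coding gene. The start sites of Gm10073 and Tmco7 lie in the same window. ZIC2 peaks covered the gene start with a score of 2497 in EpiSCs and 3100 without activin. Introns held further ZIC2 peaks, of which 3 are given. The highest, 16.6 kb into the gene, scored 2738 in EpiSCs and 3100 without activin, that at 3.40 kb scored 914 and 1678, and that at 29.4 kb 625 and 1152. These 3 peaks and the start site peak had the higher score without activin, but over all 14 shared ZIC2 peaks of Cdh1 7 were higher and 7 lower (median log2 ratio of activin-free over EpiSC score -0.01). OTX2 was strongest at 5.02 kb, in an intron, with 678 in EpiSCs and 628 without activin. The peaks listed without activin alone reached 118 for SOX2 (1.69 kb) and 265 for POU5F1 (116 kb), against list medians of 104 and 208. No site at Cdh1 held 3 or more TFs, where a site is a stretch of overlapping peaks of any TF and either culture, and 25 of its 35 sites held a single TF.

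The strongest intronic ZIC2 site of Cdh1 and an OTX2 site further on, which scored 330 in EpiSCs and 225 without activin at 26.0 kb, show the sequences that these TFs' peaks held at the gene. Capitals mark the ZIC motif CCTGCTG in the first and the OTX motif GGATTA in the second, each searched on both strands. The 201-bp windows are chr8:109143772-109143972 and chr8:109153211-109153411 (mm9, plus strand), and were placed around the motif. The stretch common to both cultures' ZIC2 peaks, 1943 bp, held the ZIC motif 4 times, of which 1 is shown. Within 201 bp around the midpoint, 19.1% of all EpiSC ZIC2 peaks held this motif and 23.6% of all EpiSC OTX2 peaks held GGATTA.
Cdh1 ZIC2 site: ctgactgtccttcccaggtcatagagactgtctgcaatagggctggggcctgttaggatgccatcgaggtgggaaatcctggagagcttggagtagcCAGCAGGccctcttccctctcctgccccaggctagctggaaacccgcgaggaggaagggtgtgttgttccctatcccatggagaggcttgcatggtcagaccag
Cdh1 OTX2 site: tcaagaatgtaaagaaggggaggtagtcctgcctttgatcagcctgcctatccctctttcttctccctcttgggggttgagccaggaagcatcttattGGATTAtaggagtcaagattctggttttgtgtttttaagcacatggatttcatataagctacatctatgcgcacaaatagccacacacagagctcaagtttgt

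Epcam (ENSMUSG00000045394.8, chr17:88035319-88050446, plus strand) resembled Cdh1 at a lower density. It had 9 ZIC2, 10 OTX2, 1 SOX2, 1 POU5F1 and 0 POU3F1 peaks in EpiSCs, and 8, 7, 2, 2 and 0 without activin. The ZIC2 peak over its start site scored 629 in EpiSCs and 1026 without activin. An OTX2 peak of 77.7 overlapped it in the EpiSC list, and no OTX2 peak covered the start site without activin. The highest ZIC2 peak of the window, 29.0 kb downstream of the start with 1681 without activin, overlapped EpiSC peaks of up to 638. Of the 40 peaks in the window, 22 were nearest to Epcam itself, and this peak was not among them. The highest OTX2 peak, at 58.6 kb, scored 316 in EpiSCs and 139 without activin. SOX2 reached 101 (without activin, 22.5 kb upstream) and POU5F1 152 in EpiSCs against 104 without activin (11.9 kb upstream). The single site with 3 TFs, 22.7 kb upstream, held OTX2 in EpiSCs (121) and SOX2 (101) and ZIC2 (51.3) without activin, so that the 3 were not found there in the same culture.

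The promoter of Epcam is shown because ZIC2 and OTX2 peaks covered it and because it holds E-boxes, the motif through which SNAI and ZEB proteins act. Its 250 bases come from the RefSeq promoter table (GRCm38.p6) and were found once in the gene's mm9 window, at chr17:88035069-88035318, plus strand. Capitals mark the E-box CACCTG, searched on both strands, and the ZIC motif CCTGCTG, which overlaps the first E-box in its letters. Of 32851 promoters of this length, 17.2% held this E-box and 8.44% the ZIC motif.
Epcam promoter: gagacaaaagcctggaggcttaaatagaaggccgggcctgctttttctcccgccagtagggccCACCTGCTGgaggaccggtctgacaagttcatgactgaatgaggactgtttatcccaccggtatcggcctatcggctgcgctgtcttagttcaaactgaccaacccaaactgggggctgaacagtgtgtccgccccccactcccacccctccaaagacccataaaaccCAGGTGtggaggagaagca

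Snai1 (ENSMUSG00000042821.7, chr2:167363695-167368314, plus strand), a repressor of Cdh1, was the gene with most ZIC2. The EpiSC window held 25 ZIC2, 9 OTX2, 1 SOX2, 1 POU5F1 and 0 POU3F1 peaks, and the activin-free window 28, 5, 2, 1 and 0. ZIC2 peaks covered 34.2% of the window in EpiSCs and 31.5% without activin. The ZIC2 density of 23.9 peaks per 100 kb in EpiSCs was above that of 90.4% of all genes. ZIC2 covered the start site with 1468 in EpiSCs and 2849 without activin, and stood at 3100 in both cultures over the coding exons, 2.89 kb into the gene. A further peak 34.5 kb upstream scored 2824 and 3100, but was nearest to Rnf114, and 40 of 72 peaks in the window were nearest to Snai1. The highest OTX2 peak without activin, 12.1 kb upstream, scored 248 (98.1 in EpiSCs), and the highest in EpiSCs, 17.5 kb upstream, scored 135 (189 without activin). SOX2 reached 67.6 and POU5F1 213 (50.4 kb downstream, 79.6 in EpiSCs), and no site held 3 TFs.

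The Snai1 promoter lies under the start site ZIC2 peaks of both cultures (chr2:167363445-167363694, plus strand, found once in mm9 from the RefSeq table of GRCm38.p6). It is shown for its E-box, CACCTG on either strand, in capitals, a motif that 17.2% of promoters held. The letters CCTGCTG were not in these 250 bases on either strand.
Snai1 promoter: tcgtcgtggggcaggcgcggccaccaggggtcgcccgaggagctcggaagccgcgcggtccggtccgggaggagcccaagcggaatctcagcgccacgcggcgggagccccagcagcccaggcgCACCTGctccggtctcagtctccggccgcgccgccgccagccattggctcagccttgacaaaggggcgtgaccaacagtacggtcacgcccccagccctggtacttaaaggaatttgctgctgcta

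Twist1 (ENSMUSG00000035799.5, chr12:34642536-34644682, plus strand) had the highest EpiSC scores of both POU factors among the 8 genes. There were 5 ZIC2, 3 OTX2, 9 SOX2, 7 POU5F1 and 13 POU3F1 peaks in EpiSCs, and 7, 5, 11, 10 and 10 without activin. The EpiSC density of SOX2, 8.81 peaks per 100 kb, was above that of 99.1% of genes, that of POU5F1 above 98.1% and that of POU3F1 above 96.7%. Its strongest site lay 18.1 kb upstream. There POU5F1 scored 2966 in EpiSCs and 3100 without activin, and POU3F1 scored 2182 and 3215. A SOX2 peak scored 102 in EpiSCs and 55.1 without activin, and another 64.6 and 66.3. A site 3.54 kb upstream held OTX2, SOX2, POU5F1 and POU3F1 in both cultures. All 4 TFs had the higher score there without activin. So did 71.4% of shared OTX2 peaks, 71.6% of SOX2, 98.4% of POU5F1 and 59.2% of POU3F1 peaks over the whole lists. OTX2 scored 83.5 in EpiSCs and 279.5 without activin, POU5F1 104 and 314, POU3F1 122 and 199, and SOX2 70.2 and 101. At the third such site, 21.9 kb downstream, SOX2 was the highest TF (340 in EpiSCs, 392 without activin), POU3F1 scored 185 and 119, and POU5F1 was listed without activin with 169. The start site was covered by a ZIC2 peak 3463 bp wide in EpiSCs (1363). Without activin the same stretch was called as separate peaks, the highest (1112) centred 1.49 kb upstream and the one over the start site at 426. Part of the larger ZIC2 count without activin is thus a split peak. Of the 80 peaks, 55 were nearest to Twist1, and Ferd3l starts in the window.

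The sequence at the Twist1 upstream site is shown because it held 3 octamers within the peaks of both POU factors. Capitals mark ATGCAAAT or ATGCATAT, searched on both strands, and a pair of them overlap in the second run of capitals. The window is chr12:34623027-34623227 (mm9, plus strand, 19.4 kb upstream of the start). In all, 18.6% of EpiSC POU5F1 peaks and 8.84% of EpiSC POU3F1 peaks held an octamer in the central 201 bp.
Twist1 POU site: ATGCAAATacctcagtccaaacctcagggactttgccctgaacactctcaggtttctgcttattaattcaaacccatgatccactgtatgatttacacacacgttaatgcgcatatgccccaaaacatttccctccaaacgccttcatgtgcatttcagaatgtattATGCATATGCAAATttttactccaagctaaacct

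Zeb2 (ENSMUSG00000026872.8, chr2:44839154-44972915, minus strand) had the most sites found without activin alone among the 8 genes. In EpiSCs it held 6 ZIC2, 9 OTX2, 9 SOX2, 13 POU5F1 and 21 POU3F1 peaks, and without activin 5, 14, 17, 24 and 22. Of its 55 sites, 19 were found without activin alone and 4 in EpiSCs alone. Over the 8 genes this was 55 and 39 of 319 sites, and over all genes it was not counted. In the whole activin-free lists, 55.9% of SOX2 and 47.1% of POU5F1 peaks had an EpiSC partner, shares that the intervals for Zeb2 include. Zeb2 was also the gene whose start site carried a strong POU peak. POU3F1 covered it with 1859.7 in EpiSCs and 3100 without activin, ZIC2 with 385 and 516, and at the same site POU5F1 scored 634 and 3100 and OTX2 100 and 63.3. The other site at the cap lay in an intron at 24.3 kb. POU5F1 scored 1331 in EpiSCs and 3100 without activin there, POU3F1 1366 and 3100, and OTX2 60.9 without activin. ZIC2 was highest in EpiSCs at an inner start site 7.92 kb into the gene, with 542 (434 without activin).

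The remaining multi-factor sites of Zeb2 were weaker. A 4-factor site at 80.9 kb held ZIC2 (121 in EpiSCs, 257 without activin), SOX2 (125 and 153), POU5F1 (282 and 1253) and POU3F1 (412 and 478), all higher without activin. Most shared peaks of each of these TFs' lists were higher without activin too. At 19.0 kb, OTX2 (154 and 188) and POU5F1 (62.8 and 216) were in both cultures while SOX2 (53.3) and POU3F1 (118) were listed in EpiSCs alone. At 132 kb, over the last exon, OTX2 scored 324 and 546, POU3F1 514 and 284, and POU5F1 519 without activin. At 85.3 kb, OTX2 (228 and 429), SOX2 (347 and 304) and POU5F1 (120 and 197) overlapped. The site at 53.5 kb, with OTX2, SOX2 and POU5F1, stayed under 79 in each list, and that at 160 kb had POU3F1 (415 and 228) above SOX2 (101 and 72.9) and POU5F1 (96.6 without activin). POU5F1 was in both lists at 4 of these 6 sites and scored higher without activin at 3 of them, where 98.4% of the shared POU5F1 peaks of the list did so. The highest SOX2 peak without activin lay elsewhere, at 12.6 kb, with 322 in EpiSCs and 477 without activin.

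Both Zeb2 sequences below carry octamers, capitals marking ATGCAAAT or ATGCATAT on either strand. The first, in an intron 111 kb from the start (chr2:44861773-44861973, mm9, plus strand), held 3 octamers under peaks of POU5F1 (157 in EpiSCs, 419 without activin) and POU3F1 (119 and 106). The second, 1.27 kb upstream of the start (chr2:44974085-44974285), lies in the start site POU3F1 peaks, which held 2 octamers, of which 1 is shown. The peaks at 24.3 kb, at the cap without activin, held 0 octamers. Score and octamer number did not go together at these 3 sites.
Zeb2 intron site: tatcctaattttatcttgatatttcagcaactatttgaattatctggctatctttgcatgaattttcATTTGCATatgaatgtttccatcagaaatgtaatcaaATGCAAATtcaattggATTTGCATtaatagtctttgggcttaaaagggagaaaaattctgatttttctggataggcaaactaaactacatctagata
Zeb2 upstream site: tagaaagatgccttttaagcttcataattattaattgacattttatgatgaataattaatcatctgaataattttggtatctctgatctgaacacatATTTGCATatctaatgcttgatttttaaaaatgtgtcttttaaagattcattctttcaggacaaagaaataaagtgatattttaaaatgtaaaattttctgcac

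**Figure D2:**
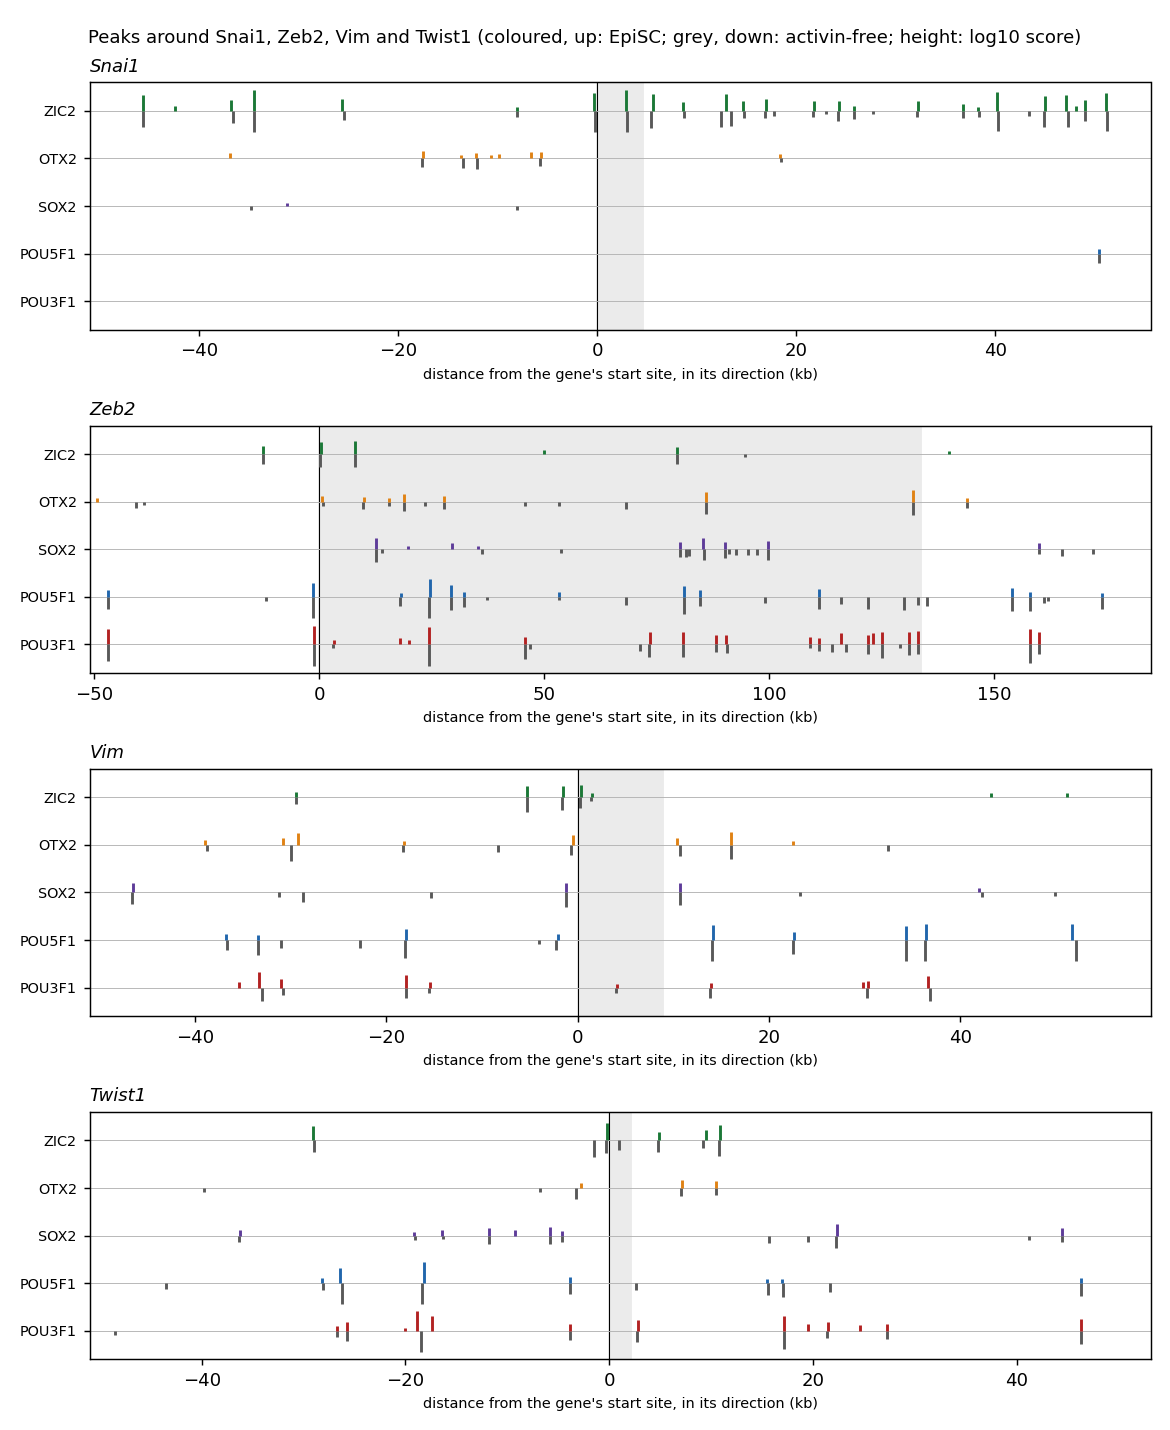
Peaks around Snai1, Zeb2, Vim and Twist1, by distance from the gene start (x axis, kb) with peak height as the log10 of the MACS score, EpiSC peaks in colour upward and activin-free peaks in grey downward, and the gene body as a grey box. ZIC2 crowds Snai1, where it reaches 3100 in both cultures, while the tallest Twist1 peaks are the POU peaks about 18.1 kb upstream.

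Zeb1 (ENSMUSG00000024238.5, chr18:5591858-5775465, plus strand) encodes another repressor of Cdh1. It had 14 ZIC2, 13 OTX2, 15 SOX2, 10 POU5F1 and 9 POU3F1 peaks in EpiSCs, and 13, 14, 12, 16 and 7 without activin. Of its 123 peaks, 121 were nearest to Zeb1. The highest scores without activin were those of a POU site in a noncoding exon about 51.5 kb into the gene, with POU5F1 at 381 in EpiSCs and 2445 without activin, and POU3F1 at 829 and 1766. At 46.0 kb POU3F1 scored 870 and 581, POU5F1 75.1 and 688, and SOX2 68.8 in EpiSCs. ZIC2 at the start region had a peak of 273 centred 0.486 kb upstream and a peak of 392 over an inner start site in EpiSCs, and 3 peaks of 139, 134 and 216 over the same stretch without activin. The highest ZIC2 peak, 173 kb into the gene, scored 534 and 1130. At 222 kb, downstream of the gene, OTX2 scored 226 and 441 and SOX2 418 and 248, in opposite directions. This was the highest SOX2 peak of both cultures and the highest OTX2 peak without activin, while OTX2 in EpiSCs was highest at 212 kb (307). The same contrast was seen at 21.2 kb, where OTX2 scored 217 and 244, SOX2 301 and 200, and ZIC2 55.2 and 50.2. At 25.9 kb OTX2 (194 and 440) overlapped SOX2 (54.0 and 58.5) and, in EpiSCs, POU3F1 (55.9).

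Vim (ENSMUSG00000026728.3, chr2:13495554-13504453, plus strand) combined a start site with many TFs and distal POU5F1 peaks. It had 7 ZIC2, 8 OTX2, 4 SOX2, 9 POU5F1 and 10 POU3F1 peaks in EpiSCs, and 5, 8, 9, 12 and 8 without activin. Its EpiSC POU5F1 density of 8.26 peaks per 100 kb was above that of 99.3% of genes. At the start site, ZIC2 scored 436 in EpiSCs and 258 without activin, and OTX2 239 and 231. In the same merged site, another ZIC2 peak went the other way, with 361 in EpiSCs and 449 without activin. SOX2 scored 217 in EpiSCs and 633 without activin there (1.24 kb upstream) and POU5F1 94.5 and 236. The highest ZIC2 peak without activin lay 5.25 kb upstream, with 704 (367 in EpiSCs). Downstream of the gene, POU5F1 reached 3100 without activin at 34.3, 36.3 and 52.1 kb, where the EpiSC scores were 675, 1078 and 973. The site 29.9 kb upstream was the one at Vim with all 5 TFs. OTX2 led it with 394 in EpiSCs and 1055 without activin, ZIC2 scored 89.1 and 117 and POU3F1 166 and 142, and SOX2 (197) and POU5F1 (170) were added without activin. At the site 18.0 kb upstream POU5F1 scored 310 and 1333, POU3F1 456 and 255 and OTX2 67.4 and 140, so that POU3F1 was highest in EpiSCs and POU5F1 without activin. POU5F1 led in both cultures at the site 15.0 kb downstream (758 and 2642, with OTX2 431 and 692 and POU3F1 66.6 and 262). The weakest 3-factor site, at 22.9 kb, had POU5F1 165 and 625, OTX2 58.9 in EpiSCs and SOX2 59.7 without activin. POU3F1 was highest 33.3 kb upstream, 806 and 546. Gm9875 and Trdmt1 start in the window, and 48 of 80 peaks were nearest to Vim.

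Cdh2 (ENSMUSG00000024304.8, chr18:16747386-16967755, minus strand), the N-cadherin gene, had the most peaks and the most multi-factor sites by count, in the widest window. Its density over all TFs in EpiSCs, 31.8 peaks per 100 kb, was below that of Twist1 (36.2), Vim (34.9) and Snai1 (34.4). It held 3 ZIC2, 20 OTX2, 24 SOX2, 20 POU5F1 and 35 POU3F1 peaks in EpiSCs, and 3, 23, 15, 30 and 37 without activin, in a window of 320 kb in which no other protein-coding gene starts. All 210 peaks were nearest to Cdh2. Of its 69 sites, 14 held 3 or more TFs. ZIC2, with few peaks, was strong over the gene start, with 1745 in EpiSCs and 1956 without activin. The site around the start was 1 of 2 among all 319 sites of the 8 genes that held peaks of all 5 TFs. It is a chain of 16 peaks of both cultures over 8108 bp, in which no ZIC2 peak overlapped an OTX2 peak of the same culture. POU3F1 scored 1032 in EpiSCs and 1000 without activin there (1.63 kb upstream), SOX2 374 and 251, POU5F1 73.6 and 269, and OTX2 184 without activin.

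The gene body of Cdh2 was led by the POU factors. At 46.4 kb, in an intron, POU5F1 scored 1425 in EpiSCs and 3100 without activin and POU3F1 740 and 1820. At 160 kb, over a coding exon, POU3F1 scored 2005 and 3012, POU5F1 188 and 512, and SOX2 80.1 and 124. An inner start site at 139 kb was covered without activin by SOX2 (525, against 293 in EpiSCs), POU5F1 (513, against 143) and OTX2 (149, against 65.3), and was the strongest SOX2 site of the gene in that culture. Each of these TFs scored higher there without activin, as did most shared peaks of their lists. Intron sites at 151, 142, 134 and 113 kb joined OTX2, POU5F1 and POU3F1, as did a site 14.0 kb upstream. POU5F1 and POU3F1 were both higher without activin at all 5, as were 98.4% and 59.2% of the shared peaks of their lists. At 151 kb POU5F1 scored 256 and 984 and POU3F1 364 and 424, at 142 kb 101 and 396 and 439 and 1486, and at 134 kb 260 and 699 and 62.8 and 82.4. OTX2 at these 5 sites ranged up to 131 in EpiSCs and 462 without activin, both at 134 kb.

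The other 6 multi-factor sites of Cdh2 held SOX2 with POU3F1. At 116 kb, POU5F1 scored 481 in EpiSCs and 1726 without activin, POU3F1 194 and 128, and SOX2 142 and 139. Sites at 72.9 and 52.1 kb held OTX2, SOX2 and POU3F1, and SOX2 (84.0 and 57.0 in EpiSCs) was not listed at either without activin. Downstream of the gene, a site at 236 kb had SOX2 at 315 and 199, OTX2 at 206 and 253, and POU3F1 at 74.4 without activin. At 233 kb, POU3F1 (288 and 239) was joined without activin by SOX2 (156) and POU5F1 (180), and at 257 kb POU3F1 scored 191 and 163, SOX2 93.7 in EpiSCs and POU5F1 281 without activin. The highest OTX2 peak without activin lay at 22.4 kb, with 509 (197 in EpiSCs), and the highest in EpiSCs at 194 kb, with 276 (466 without activin). SOX2 at Cdh2 thus went from 24 to 15 peaks while the SOX2 list as a whole grew from 63751 to 87907.

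**Figure D3:**
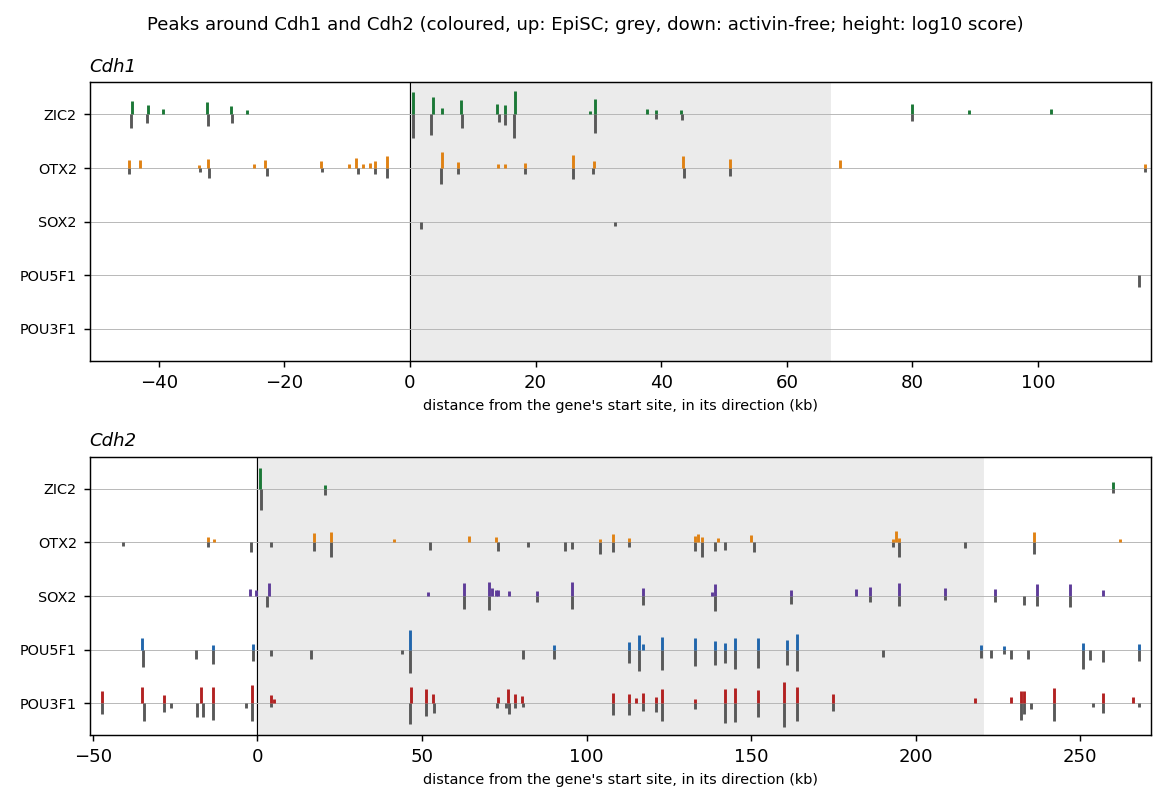
Peaks around Cdh1 and Cdh2, by distance from the gene start (x axis, kb) with height as the log10 of the MACS score, EpiSC peaks in colour upward and activin-free peaks in grey downward, and the gene body as a grey box. Cdh1 shows ZIC2 and OTX2 rows with 0 POU3F1 peaks, and Cdh2 shows 35 POU3F1 peaks in EpiSCs spread along the gene.

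With the full lists, the number of peaks at the 8 genes differed less between the cultures than list size did for SOX2 and POU5F1. SOX2 went from 63 to 70 peaks, a ratio of 1.11, with a list ratio of 1.38, and POU5F1 from 61 to 96, a ratio of 1.57, with a list ratio of 2.03. ZIC2 went from 90 to 83 (0.922, list 0.896), OTX2 from 96 to 92 (0.958, list 1.10) and POU3F1 from 88 to 84 (0.955, list 0.905). The OTX2 ratio varied in direction with the setting. It was 0.868 relative to list size, 1.30 at a score of 100 or more (43 to 56 peaks) and 1.35 for summed peak width. The direction for SOX2 and POU5F1 followed the size of the lists. Among the 50000 highest peaks of each list, SOX2 went from 57 to 40 (0.702) and POU5F1 from 54 to 49 (0.907). There the lists were cut to equal length, so these ratios have no list ratio to be set against. Most EpiSC peaks at these genes overlapped an activin-free peak of the same TF by 1 bp or more. The share was 82.2% for ZIC2 (74 of 90, interval 73.1 to 88.8, list 78.9%), 76.0% for OTX2 (73 of 96, 66.6 to 83.5, list 78.1%) and 66.7% for SOX2 (42 of 63, 54.4 to 77.1, list 77.6%). It was 100% for POU5F1 (61 of 61, 94.1 to 100, list 98.3%) and 86.4% for POU3F1 (76 of 88, 77.7 to 92.0, list 82.6%). The list share lay within the interval for ZIC2, OTX2, POU5F1 and POU3F1, and just above it for SOX2. At Cdh2, 14 of 24 EpiSC SOX2 peaks and at Zeb1 9 of 15 were shared, against 8 of 9 at Twist1 and 4 of 4 at Vim.

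In the other direction, 91.6% of activin-free ZIC2 peaks were also in the EpiSC list (76 of 83, list 91.2%), 73.9% of OTX2 peaks (68 of 92, list 67.5%), 61.4% of SOX2 peaks (43 of 70, list 55.9%), 62.5% of POU5F1 peaks (60 of 96, interval 52.5 to 71.5, list 47.1%) and 86.9% of POU3F1 peaks (73 of 84, list 86.8%). The POU5F1 share was above that of its list, the others had the list share inside their interval. Peaks found in a single culture had lower scores. The median score of EpiSC peaks with and without a partner was 288 and 70.3 for ZIC2, 100 and 67.8 for OTX2, 149 and 81.1 for SOX2, and 302 and 83.3 for POU3F1. For activin-free POU5F1 it was 608 and 136. At Cdh1, all 14 ZIC2 (interval 78.5 to 100) and all 16 OTX2 peaks (80.6 to 100) listed without activin overlapped EpiSC peaks. The list share was inside the interval for ZIC2 and below it for OTX2. In EpiSCs 14 of its 21 ZIC2 (66.7%, interval 45.4 to 82.8) and 17 of its 24 OTX2 peaks (70.8%, 50.8 to 85.1) had a partner, intervals that include the list shares. At Zeb2, 6 of 17 activin-free SOX2 peaks (35.3%, interval 17.3 to 58.7) and 13 of 24 POU5F1 peaks (54.2%, 35.1 to 72.1) were also in the EpiSC list, and here too the intervals include the list shares of 55.9% and 47.1%.

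Among peaks in both lists, the score was higher without activin for 59.5% of ZIC2 peaks at the 8 genes (44 of 74, list 57.2%), 68.5% of OTX2 peaks (50 of 73, list 71.4%), 96.7% of POU5F1 peaks (59 of 61, list 98.4%) and 55.3% of POU3F1 peaks (42 of 76, list 59.2%). These were close to their lists. SOX2 differed, with 47.6% (20 of 42, interval 33.4 to 62.3) against a list share of 71.6%. In settings added after seeing the data the SOX2 share was 47.8% at a score of 100 or more (11 of 23, list 74.6%), 57.1% among the 50000 highest peaks (16 of 28, interval 39.1 to 73.5, list 80.0%), 16 of 32 with windows of 20 kb (33.6 to 66.4%) and 55.2% with windows of 100 kb (32 of 58, 42.5 to 67.3). It was below the list in each, but on either side of an even division. Its higher peaks were few at Cdh2 (4 of 14) and Zeb1 (3 of 9), and more frequent at Twist1 (5 of 8), Zeb2 (4 of 6) and Vim (3 of 4). An EpiSC peak was compared with the highest activin-free peak that it touched, so several narrow peaks can share 1 broad partner.

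For OTX2 the genes divided. At Cdh1, 5 of 17 shared OTX2 peaks were higher without activin, and at Epcam 2 of 6, together 7 of 23 (30.4%, interval 15.6 to 50.9) with a median log2 ratio of activin-free over EpiSC score of -0.23. At the other 6 genes it was 43 of 50 (86.0%, interval 73.8 to 93.0) with a median log2 ratio of 0.79, while the whole list had a median of 0.43. The counts were 14 of 16 at Cdh2, 10 of 11 at Zeb1, 7 of 8 at Zeb2, 6 of 7 at Vim, 4 of 5 at Snai1 and 2 of 3 at Twist1. The split between the 2 epithelial genes and the other 6 was chosen after the values were seen. At a score of 100 or more it was 1 of 8 against 20 of 23 (list 76.2%). Among the 50000 highest peaks of each list it was 1 of 6 against 20 of 22 (list 82.2%). Windows of 20 kb gave 4 of 17 against 36 of 42, and windows of 100 kb 12 of 33 against 61 of 75 (list 71.4%). These settings reuse peaks from which the split was chosen, so they are no independent check of it. GC content moved with it when the genes were pooled, and with some but not all of the genes taken singly. Over the whole OTX2 list the share of peaks with the higher activin-free score went down from 94.6% at 32 to 34% GC in 1001 bp around the midpoint to 33.3% at 56 to 58% GC. Median GC was 45.8% for the shared OTX2 peaks of Cdh1 and Epcam and 41.3% for those of the other 6 genes. List peaks in the same interquartile GC ranges had shares of 63.5% and 78.1%. Taken singly, Cdh1 had the highest median GC (46.5%, 5 of 17 higher). Cdh2 (39.6%, 14 of 16), Vim (40.3%, 6 of 7) and Zeb1 (41.0%, 10 of 11) had the lowest, followed by Twist1 (41.8%, 2 of 3). List peaks of like GC had shares of 60.4%, 82.4%, 77.9%, 81.8% and 69.0%. Out of this order, Snai1 (45.8%, 4 of 5 higher) and Zeb2 (43.5%, 7 of 8) had a higher median GC than Epcam (43.3%, 2 of 6). For these, list peaks of like GC had shares of 58.4%, 75.6% and 73.7%. The part of GC in the division was not tested.

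**Figure D4:**
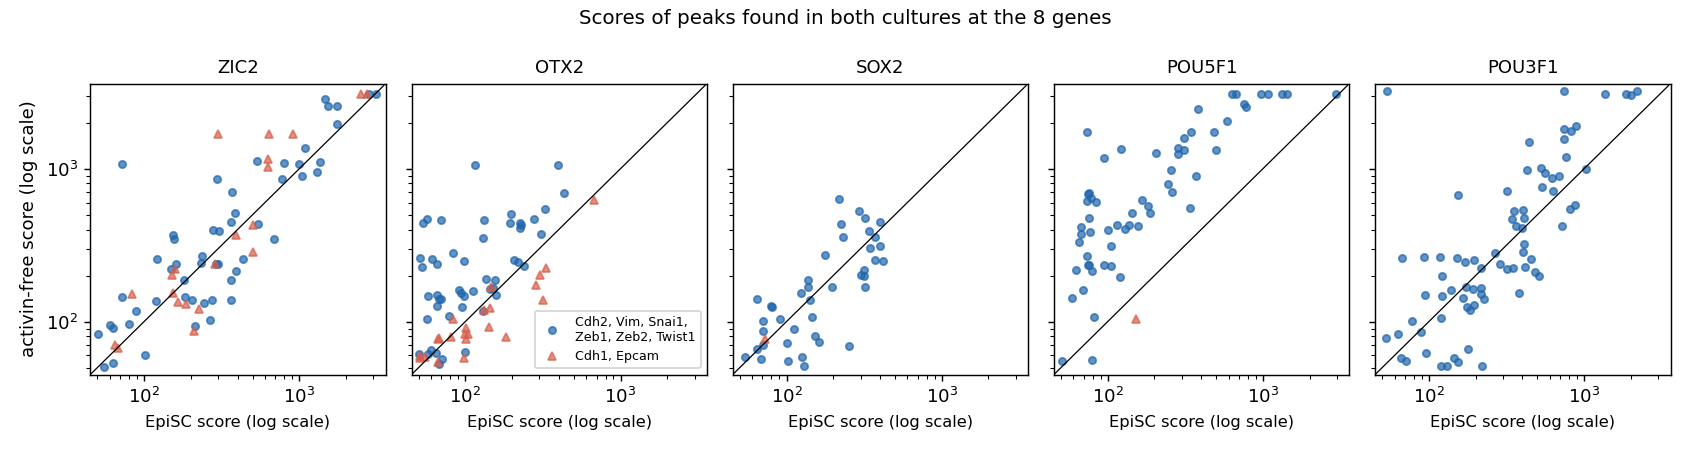
MACS score without activin (y axis) against the EpiSC score (x axis) of every EpiSC peak at the 8 genes with an activin-free partner, both axes logarithmic, 1 panel per TF, triangles for Cdh1 and Epcam and circles for the other 6 genes. For POU5F1, 59 of 61 points lie above the diagonal, and for OTX2 7 of 23 triangles and 43 of 50 circles do.

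Peaks at the 8 genes met a peak of another TF at shares above those of the lists, but most list shares lay inside the counting interval. In EpiSCs the share was 56.8% for POU3F1 (50 of 88, interval 46.4 to 66.7, list 38.1%), 47.6% for SOX2 (30 of 63, 35.8 to 59.7, list 33.0%) and 30.0% for ZIC2 (27 of 90, 21.5 to 40.1, list 19.1%). It was 40.6% for OTX2 (39 of 96, list 31.3%) and 72.1% for POU5F1 (44 of 61, list 61.0%). Without activin 35 of 70 SOX2 peaks did so (interval 38.6 to 61.4%, list 37.9%), and the share was 25.3% for ZIC2 (21 of 83, list 19.4%), 44.6% for OTX2 (41 of 92, list 35.3%), 61.5% for POU5F1 (59 of 96, list 56.4%) and 67.9% for POU3F1 (57 of 84, list 64.7%). The members' share was above that of the list in each of the 10 lists, and the list share lay below the interval for SOX2 in both cultures and for ZIC2 and POU3F1 in EpiSCs. Peaks of 1 gene are not independent of each other. The shares were not matched for peak density, which was high for SOX2 and the POU factors at several of these genes. In settings chosen after seeing the data the members' share stayed above that of the list, but the intervals did not all stay clear of it. When 50% of both peaks had to overlap, the list share was inside the interval for ZIC2 in EpiSCs (7.78%, 3.82 to 15.2, list 5.58%) and for SOX2 in EpiSCs (17.5%, 10.0 to 28.6, list 13.8%) and without activin (18.6%, 11.2 to 29.2, list 15.2%), and below it for POU3F1 in EpiSCs (35.2%, 26.1 to 45.6, list 23.3%). At a score of 100 or more it was inside for ZIC2 in EpiSCs as well (19.4%, 11.4 to 30.9, list 13.3%). Among the 50000 highest peaks of each list it was below the interval for ZIC2, SOX2 and POU3F1 in EpiSCs. Without activin it was below for OTX2, SOX2, POU5F1 and POU3F1 in that setting, and in the remaining lists it was inside.

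By pair of TFs, counted in each direction, the list share lay below the members' interval for 7 of 20 pairs in EpiSCs and 6 of 20 without activin, and above it for 0. Without activin the 6 were ZIC2 with SOX2, OTX2 with POU5F1 and OTX2 with POU3F1, each in both directions. Of activin-free ZIC2 peaks 12.0% met SOX2 (list 4.88%), and of OTX2 peaks 19.6% met POU5F1 (list 11.9%) and 19.6% POU3F1 (list 11.5%). None of these is among the 3 pairs chosen for description. Those are given in both directions, since the shares differ with the TF whose peaks are counted. In EpiSCs, 18.8% of OTX2 peaks met a ZIC2 peak (18 of 96, interval 12.2 to 27.7, list 17.8%), and without activin 12.0% (11 of 92, list 12.0%). Of the ZIC2 peaks, 22.2% met an OTX2 peak in EpiSCs (20 of 90, interval 14.9 to 31.8, list 14.8%) and 14.5% without activin (12 of 83, list 12.7%). The 2 cadherin genes differed in this, with 8 of 24 EpiSC OTX2 peaks on a ZIC2 peak at Cdh1 and 0 of 20 at Cdh2, where ZIC2 had 3 peaks in all. POU5F1 met POU3F1 at 57.4% of its EpiSC peaks (35 of 61, interval 44.9 to 69.0, list 51.6%) and 49.0% of its activin-free peaks (47 of 96, list 46.3%), and POU3F1 met POU5F1 at 42.0% (37 of 88, interval 32.3 to 52.5, list 28.0%) and 57.1% (48 of 84, list 54.6%). At Cdh2 this was 14 of 20 and 19 of 30, and at Twist1 5 of 7 and 7 of 10. SOX2 met POU3F1 at 27.0% of its EpiSC peaks (17 of 63, interval 17.6 to 39.0, list 17.7%) and 17.1% of its activin-free peaks (12 of 70, list 16.4%), and POU3F1 met SOX2 at 18.2% (16 of 88, interval 11.5 to 27.5, list 9.81%) and 11.9% (10 of 84, list 13.7%). In EpiSCs the list share was thus inside the interval for OTX2, POU5F1 and SOX2 peaks, and below it for the same pairs counted from ZIC2 and POU3F1. At Cdh2, 10 of 24 SOX2 peaks met POU3F1 in EpiSCs and 3 of 15 without activin. At a score of 100 or more the share of SOX2 peaks on POU3F1 was 13.9% in EpiSCs (list 16.4%) and 18.9% without activin (list 15.1%). Among the 50000 highest peaks of each list it was 14.0% and 10.0% (list 11.3% in both). When 50% of both peaks had to overlap it was 7.94% and 5.71% (list 5.33% and 4.42%), and that of OTX2 on ZIC2 5.21% and 3.26% (list 5.44% and 3.20%). The list shares lay inside the members' intervals in each of these settings. For POU5F1 on POU3F1 they did so too, except for the overlap of 50% without activin, where the share was 44.8% (43 of 96, interval 35.2 to 54.7) and that of the list 33.5%. For POU3F1 on POU5F1 in EpiSCs the list share stayed below the interval in these 3 settings, with 29.5% (interval 21.0 to 39.8, list 19.3%) when 50% of both peaks had to overlap. Without activin it was below the interval at a score of 100 or more (65.1%, 52.8 to 75.7, list 51.7%) and among the 50000 highest peaks (62.8%, 47.9 to 75.6, list 41.3%), and inside it at an overlap of 50% (51.2%, 40.7 to 61.6, list 41.7%). For the shares of ZIC2 on OTX2 and POU3F1 on SOX2, the list share was inside the interval in both cultures under each of the 3 settings.

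Base composition ran alongside the 2 patterns of density. The windows of Snai1 (50.8% GC), Cdh1 (46.1%) and Epcam (45.5%) were above the median of all genes, 44.3%, and those of Zeb1 (41.1%), Zeb2 (40.7%), Vim (40.3%), Cdh2 (39.9%) and Twist1 (39.9%) were below it. Across all genes ZIC2 density was higher and POU3F1 density lower in GC-rich windows. Among genes within 1 percentage point of GC, the median EpiSC ZIC2 density was 25.3 for Snai1, 10.7 for Cdh1 and 8.94 for Epcam. Against those, Snai1 with 23.9 was above 36.5% of genes of like GC, Epcam with 7.82 above 36.1% and Cdh1 with 12.6 above 69.7%. Without activin the order differed, with Snai1 above 76.4%, Epcam above 40.7% and Cdh1 above 39.4%. Of the other pattern, Vim (above 97.7%), Twist1 (96.0%) and Zeb1 (87.9%) ranked higher for their GC in EpiSC ZIC2 than Cdh1, Epcam and Snai1. Zeb2, above 58.2%, ranked below Cdh1, and Cdh2, above 29.4%, ranked lowest of the 8 genes. For POU3F1, Twist1 was above 97.5% of genes of like GC, Cdh2 above 94.4%, Zeb2 above 94.3% and Vim above 92.1%, whereas Zeb1 was above 59.0%. For POU5F1, Vim was above 99.1%. The absence of POU3F1 from Cdh1, Epcam and Snai1 matched a median of 0 at genes of like GC, while the POU peaks at Twist1, Cdh2, Zeb2 and Vim were dense for their GC as well.

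**Figure D5:**
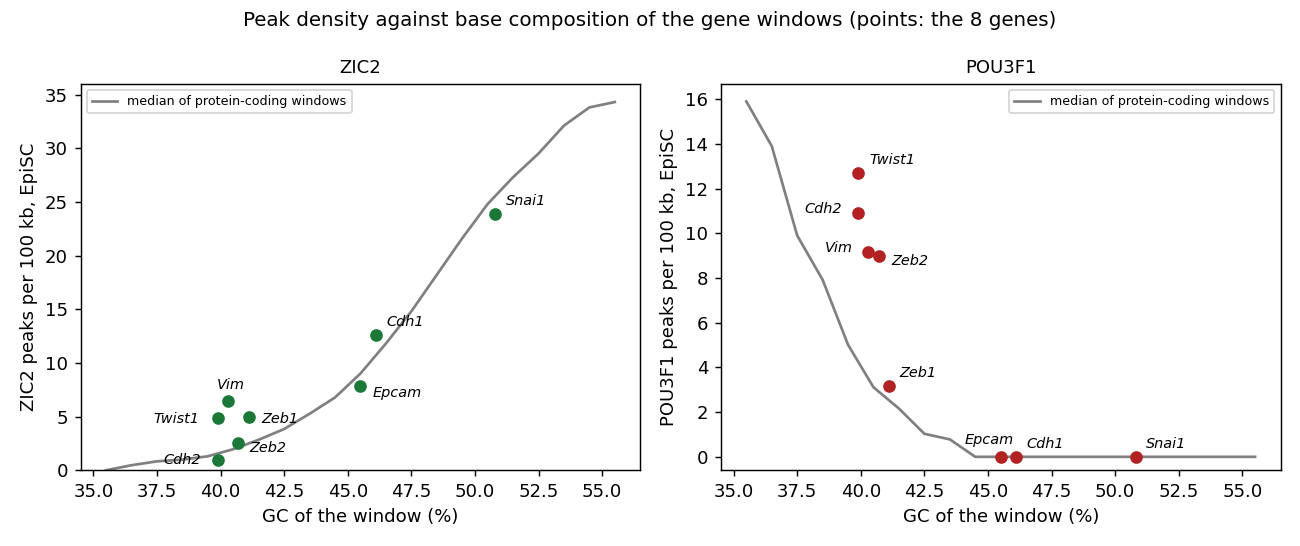
EpiSC peaks per 100 kb of window (y axis) against window GC content (x axis, percent) for ZIC2 and POU3F1, with the 8 genes as labelled points and the median of all protein-coding genes by GC as a line. Snai1 lies near the ZIC2 line at 50.8% GC, and Twist1, Cdh2, Zeb2 and Vim lie above the POU3F1 line.

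The list share of each TF's motif lay inside the interval of the members' share in both cultures. Within 100 bp of the midpoint, the ZIC motif CCTGCTG was in 21.1% of EpiSC ZIC2 peaks (19 of 90, interval 14.0 to 30.6, list 19.1%) and in 7.78% of flanking windows 1000 bp away. GGATTA was in 25.0% of EpiSC OTX2 peaks (24 of 96, list 23.6%, flanks 7.29%) and GGTAAT, another OTX sequence, in 8.33% (list 7.22%, flanks 6.77%). A SOX motif, ACAA followed by AA, AG, TA or TG, was in 82.5% of EpiSC SOX2 peaks (list 85.9%), but also in 56.3% of flanks. Octamers were in 14.8% of EpiSC POU5F1 peaks (9 of 61, list 18.6%, flanks 3.28%) and 6.82% of POU3F1 peaks (6 of 88, list 8.84%, flanks 2.27%). Without activin the ZIC motif was in 14.5% of ZIC2 peaks (12 of 83, interval 8.47 to 23.6, list 21.0%), below the list where the EpiSC share was above it. All motifs were searched on both strands. EpiSC POU5F1 peaks without a POU3F1 partner often held a stretch of 20 bp or more in which purines and pyrimidines alternate, 14 of 26 (53.8%, list 46.5%), against 5 of 35 with a partner (14.3%, list 13.8%).

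Genes of related function did not form a uniform group. All 15 other EMT transcription factor genes examined had a ZIC2 peak in EpiSCs, at a median density of 13.7 peaks per 100 kb (9 of 15 above the all-gene median of 6.80), and 7 of 15 had POU3F1, which 47.8% of all genes had. Of 30 epithelial genes, all had ZIC2 (median 13.2, 20 of 30 above the all-gene median) and OTX2 (median 8.83, 21 of 30 above 6.21), and 9 of 30 had POU3F1. The 8 cadherin complex genes had a median ZIC2 density of 6.35, and 6 of 8 had POU3F1. Among 24 mesenchymal genes the ZIC2 median was 11.9 and 12 had POU3F1. The EpiSC OTX2 median was 4.09 for the EMT factors (4 of 15 above 6.21) and 4.91 for the cadherin complex (2 of 8). For the mesenchymal genes it was 6.90 (15 of 24). The densest genes over all 10 lists were Snai3 (81.7 peaks per 100 kb) and Tcf3 (79.8) among the EMT factors, Cldn7 (83.4) and Tjp3 (79.6) among the epithelial genes, Ctnna1 (80.1) and Cdh11 (72.6) in the cadherin complex, and Sparc (76.4) and Itga5 (75.9) among the mesenchymal genes.

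The gene most alike in peak densities over the 10 lists, by Euclidean distance of log2(peaks per 100 kb + 1), was Spag5 for Cdh1 (0.453), Cox17 for Epcam (0.459), Pnpla3 for Snai1 (0.315), Thoc7 for Zeb1 (0.460), Ebag9 for Zeb2 (0.656), Dmxl1 for Cdh2 (0.747), BC061194 for Vim (0.888) and Fezf1 for Twist1 (1.05). No member was the nearest neighbour of another. Twist1 and Vim, with the largest distances, had the least closely matched patterns.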

How the data were processed

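The authors deposited 10 peak lists (BED files), 1 for each of 5 tagged TFs in 2 cultures, with 1 library per group. According to the study's methods, reads were aligned with Bowtie2 to mm9 and peaks were called per library with MACS 1.4 against input, with a band width of 150 bp and other settings at default. Each deposited score is the -10 log10 p-value of a peak. The input library, from EpiSCs kept in activin, and its reads were not analysed here. No column held values of another sample, and start coordinates were raised by 1 to be 1-based. The lists fitted the chromosome lengths of NCBIM37 apart from 1 EpiSC ZIC2 peak that ran past an end, and 65 to 247 peaks per list lay off the main chromosomes. Genes were those of GENCODE vM1, and promoters came from RefSeq.

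The 8 genes were given by name, and the members and gene lists were chosen with earlier results of these data known. Peaks were assigned by midpoint to the gene body with 50 kb on either side. Peaks were counted as overlapping from 1 bp, and shares were given 95% Wilson intervals. Described one by one were peaks over a start site, the highest peak of each TF per gene, and sites of 3 or more TFs, with the most alike gene and the 2 densest genes per list. No test was possible with 1 library per group. Alternatives were a score of 100 or more, the 50000 highest peaks of each list, windows of 20 and 100 kb, peaks whose nearest start site belonged to the gene, an overlap of 50%, counts relative to the list, and summed peak width in place of counts. Overlap and counting steps were tested on simulated data. Python 3.11.15, numpy 2.4.6, scipy 1.17.1, pysam 0.24.0, samtools 1.23.1 and matplotlib 3.10.9 were used.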

Additional observations from a re-analysis of the deposited data

How the results depend on the processing

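Of 101 values recomputed for 16 results, 83 moved by less than their counting interval or, for ratios of counts, by less than 1.5 times, and 18 moved by more. The cause was not tested, beyond the smaller numbers of peaks that the stricter settings leave. With the 50000 highest peaks of each list, the ratio of activin-free to EpiSC peaks at the 8 genes was 0.702 for SOX2 and 0.907 for POU5F1, and for POU5F1 it was 0.775 when counts were divided by list size. The share of EpiSC peaks also found without activin was then 49.1% for SOX2, 81.5% for POU5F1 and 92.5% for POU3F1. It was 95.2% for ZIC2 at a score of 100 or more and 62.5% for OTX2 when 50% of both peaks had to overlap. EpiSC overlaps at 50% were 5.21% for OTX2 with ZIC2, 42.6% for POU5F1 with POU3F1 (40.7% among the 50000 highest) and 7.94% for SOX2 with POU3F1 (13.9% at a score of 100 or more, 14.0% among the 50000 highest). Activin-free overlaps were 3.26% at 50% and 4.88% among the 50000 highest for OTX2 with ZIC2, and 5.71% and 10.0% for SOX2 with POU3F1. The direction of shared scores, the division of OTX2 between genes and the share of peaks that met any other TF were recomputed in settings chosen after seeing the data. Depth limits what a missing peak means, since read numbers were not given. No paired analysis was possible because each group had 1 library.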
